A study of Mus musculus with 183 samples.

Results

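Brd2 and Brd3 are BET family genes, whose proteins carry a pair of bromodomains and an extra-terminal domain. They were taken here by name from a list of 2 members, out of 53380 genes counted in a half-life experiment in mouse embryonic stem cells (mESCs) and out of 7240 mRNAs with values of binding to RNA decay factors. After transcription was blocked, Brd2 mRNA was lost faster than most mRNAs, with 9.65 to 10.5% of genes decaying faster, and over the whole course Brd3 mRNA was lost at about the rate of the median gene. No difference in decay of either mRNA between the days or the clones passed the main test. A fit with a block for replicates within each treated time had Brd2 decaying more slowly in the Aven-/- clone at day 4. This fit was chosen after seeing the data and called 9.08% of genes, and no other fit gave the call. Clone and genotype cannot be told apart. Brd2 was among the mRNAs with the highest relative binding to AVEN, and a link of this binding to decay was not tested.

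Bromodomains bind acetylated lysines, above all on histone H4, and the extra-terminal domain holds further chromatin regulators, so that BET proteins link acetylated chromatin to transcription by RNA polymerase II. In mESCs the family is known for its part in transcription of pluripotency genes. Loss of an mRNA is carried out by separate machineries. XRN1 digests the message from its 5′ end, SKIV2L (also SKI2) is the helicase of the Ski complex that feeds messages into the cytoplasmic exosome from the 3′ end, and MTR4 is the helicase that serves the nuclear exosome. AVEN, whose gene was deleted in 1 of the lines, is an RNA-binding protein with arginine- and glycine-rich stretches.

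The half-life experiment comprised 47 RNA-seq libraries of 2 lines, each a single clone. Clone 5F was labelled Rosa26 Cre-ERT2/- with both copies of Skiv2l floxed (Skiv2l fl/fl). Clone 7E was labelled Rosa26 Cre-ERT2/BirA-V6, which the study's list of lines writes BirA-V5, and Aven-/-, with Skiv2l tagged on both copies (3xFLAG-Avi), and the labels of other RNA-seq libraries of the clone add Skiv2l fl/fl, which those of its half-life libraries leave out. The clones thus differ in more than Aven, and clone and genotype cannot be told apart. Cells were taken at day 0, without 4-hydroxytamoxifen (4OHT), and at day 4 of 0.1 µM 4OHT, which activates the Cre recombinase. Each was then treated with actinomycin D, an inhibitor of transcription, for 120, 240 or 360 min, or with the solvent alone (mock, plotted as 0 min). Each group held 3 libraries, except clone 5F at day 0 and 120 min, which held 2. The study calls these replicates technical, so p-values reach no further than these samples. Those of mock levels measure the spread between libraries. Those of straight lines in time also hold any departure of the course from a line. The concentration of actinomycin D is not printed because the labels and the methods give it in different units.

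The libraries held 24440935 to 34114250 counted reads. As a check of the labels, Skiv2l, the targeted gene, had a mock level of 4163 ± 36.5 (SD, n = 3) normalised reads in clone 5F at day 0 and 4134 ± 296 at day 4, so its level did not fall. The loxP sites flank inner exons, so reads of the whole gene need not fall, and the libraries labelled day 4 of clone 5F are named by their label only. In clone 7E the level of Skiv2l was 969 ± 67.5 at day 0 and 388 ± 19.1 at day 4. It was thus lower than in clone 5F already before 4OHT, at a log2 difference of -2.10 (edgeR adjusted p 3.9e-18). Comparisons of the clones at day 0 therefore hold this difference in Skiv2l as well as that in Aven, and its part was not tested. Aven was at 1004 ± 6.86 in clone 5F and 66.9 ± 16.5 in clone 7E at day 0. All 8 pluripotency markers examined, among them Pou5f1, Sox2 and Nanog, were expressed, with a summed level of 2214 to 3822 CPM (reads scaled to library size), against 3.27 to 18.4 CPM for the 5 fibroblast markers, of which Col1a2 and Col3a1 were under 1 CPM. The 4 primitive endoderm markers summed to 43.8 to 101 CPM in clone 5F and 6.38 to 10.8 CPM in clone 7E, the 3 neural markers to 41.0 to 72.2 and 72.4 to 133 CPM, and the 3 mesoderm markers to 0.659 to 5.43 CPM in all, with T and Mixl1 under 1 CPM.

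A set of 12 libraries stood apart. In each group treated with actinomycin D, 1 library had a mitochondrial share of 0.71 to 1.25% of the reads, against 1.76 to 3.99% in the other treated libraries. These were replicate 1 at 120 min, replicate 2 at 240 min and replicate 3 at 360 min in both clones and on both days. Brd3 was lower in all 12 than in every other library of its group, at 50.4 to 82.5% of their mean, and Brd2 was lower too, but only to 81.9 to 97.3%. The mean log2 difference was -0.58 for Brd3 and -0.16 for Brd2, whereas the median gene differed by 0.021. Spike-in reads were also a larger share of those libraries than of the others of their group in all 12 groups. Their part in the results was not tested, and decay of Brd2 and Brd3 over the whole course is therefore given with and without them. Fits to part of the course, fits with a block for replicates and half-lives of other named genes are given only with them.

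Brd2 (ENSMUSG00000024335) lies on the minus strand of chromosome 17, at chr17:34112023-34122634 of GRCm38, and Brd3 (ENSMUSG00000026918) on the minus strand of chromosome 2, at chr2:27445579-27507662. The exons of all their annotated transcripts span 7826 and 7336 nt. Of the exonic bases of Brd2, 9.78% are shared with 2 genes on the opposite strand, H2-DMa and CR974462.3, whose reads cannot be told apart without strand. H2-DMa had 45.6 reads per library on average, whereas Brd2 had 3330 or more in each. The authors' binding table used a transcript of 4483 nt for Brd2 and of 2791 nt for Brd3. These transcripts differed most at their 5′ end. The 5′ UTR of the Brd2 transcript was 1534 nt long, longer than in 99.7% of 7221 mRNAs, whose median was 169 nt, and that of the Brd3 transcript was 18 nt. Their coding sequences were 2397 and 2181 nt and their 3′ UTRs 552 and 592 nt.

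Short sequences of these transcripts are shown because each matches letters that are often discussed in mRNA decay or AVEN binding. They were read from the GRCm38 genome, are given 5′ to 3′ on the minus strand, and carry the match in capitals. The 3′ UTR of Brd2 held 2 matches of ATTTA, the core of AU-rich elements, that share 1 base, and 1 match of TGTANATA, the site of Pumilio proteins, which overlaps a polyadenylation hexamer AATAAA. The 3′ UTR of the chosen Brd3 transcript held 1 ATTTA and no TGTANATA. This match, at chr2:27448240-27448244, lies 397 nt from the end of that transcript, whereas the annotated gene runs to 27445579. Longer 3′ ends of Brd3 were therefore not searched, and the motifs of the 2 genes are not compared over their full 3′ ends. Only the strand of the transcript was searched.
Brd2, first ATTTA, chr17:34112251-34112279: tttgaggttttaATTTAtttaagctatgt
Brd2, overlapping ATTTA, chr17:34112247-34112275: aggttttaatttATTTAagctatgtggta
Brd2, TGTANATA, chr17:34112036-34112065: tgagtctaacaTGTAAATAaagaaaatatt
Brd3, ATTTA, chr2:27448228-27448256: ctttgcagctccATTTAgttgtttggaga
ATTTA is common, being in 67.7% of 7173 mRNAs with a 3′ UTR and in 55.4% of the 1346 whose 3′ UTR is 400 to 800 nt long, and TGTANATA is in 26.4% and 15.2% of them.

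A further feature was 4 runs of at least 3 G with 1 to 7 bases between them, letters that can fold into a G-quadruplex. The Brd2 transcript held 2 such matches, of which 1 lay near the start of the coding sequence and 1 in the 3′ UTR. The Brd3 transcript held none. A match of this kind was found in 22.6% of 7221 transcripts, and 94.9% of them had fewer than 2.
Brd2, coding, chr17:34117177-34117205: tGGGGAAGGGAATGCAGGGTTACTGGGGc
Brd2, 3′ UTR, chr17:34112347-34112376: tgatGGGGGTGGGGCAAGGGTATGGGtggg
All of these are matches of letters in 1 chosen transcript per gene and do not say whether a protein binds there.

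The first comparison asked how much of each mRNA there was before transcription was blocked. Brd2 was the more abundant of the pair in every mock library, with 4.12 to 5.74 reads for each read of Brd3. Per kilobase of exonic length this was 3.86 to 5.38 to 1. In the mock libraries of clone 5F at day 0, Brd2 had 12566, 12669 and 12753 normalised reads, and at day 4 it had 13809, 13725 and 13807. In clone 7E it had 12011, 12679 and 12168 at day 0 and 14576, 14422 and 14727 at day 4. The order of the group means was therefore clone 7E day 4, clone 5F day 4, clone 5F day 0 and clone 7E day 0, and only the last pair overlapped.

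Brd2 rose at day 4 in both clones relative to the other genes. In clone 5F the log2 change was 0.12 ± 0.037 (SE), with an adjusted p of 0.019 by edgeR's quasi-likelihood test. In clone 7E it was 0.25 ± 0.037, with an adjusted p of 1.1e-05. These comparisons called 22.6% and 39.9% of 17209 genes in either direction, and 11.9% and 20.5% as higher, so a call at this level was common. Pluripotency markers moved with the rise in clone 7E, where 7 of 8 fell at day 4 and 0 rose (median log2 change -0.20), whereas 2 rose and 2 fell in clone 5F. Of the 5 fibroblast markers, 3 rose in clone 7E and 1 in clone 5F. Their part in the change of Brd2 was not tested. The call in clone 5F was lost without day 0 replicate 1, day 4 replicate 1 or day 4 replicate 3 of that clone, with adjusted p values of 0.071, 0.0502 and 0.059.

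The direction in clone 7E depended on the scale. The spike-ins, added to the lysis buffer, took 0.65 ± 0.0099% (SD, n = 3) of the reads in the mock libraries of clone 7E at day 4 and 0.31 ± 0.0056% at day 0. When each library was scaled to its own spike-ins, the median gene shifted by -1.10 on the log2 scale in this comparison. Brd2 changed by -0.85, with an edgeR adjusted p of 3.8e-15. Relative to the median gene Brd2 was higher on either scale, because scaling moves all genes of a library alike. On that scale its change in clone 5F was 0.054, with an adjusted p of 0.51. Fewer cells in a well and less mRNA per cell cannot be told apart in these data.

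Brd3 did not pass the test in any comparison of mock levels. Its normalised reads were 2653, 2841 and 2622 in clone 5F at day 0 and 2658, 2815 and 2863 at day 4, and these ranges overlapped. They were 2914, 2923 and 2844 in clone 7E at day 0 and 2540, 2573 and 2932 at day 4, which again overlapped because of replicate 3. The log2 change at day 4 was 0.038 ± 0.053 (SE) in clone 5F and -0.11 ± 0.053 in clone 7E, with edgeR adjusted p values of 0.66 and 0.11. Without clone 7E day 4 replicate 3, the change in clone 7E was -0.18 with an adjusted p of 0.0070. Scaled to each library's own spike-ins, it was -1.21, with an adjusted p of 1.1e-15, close to the shift of the median gene.

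**Figure D1:**
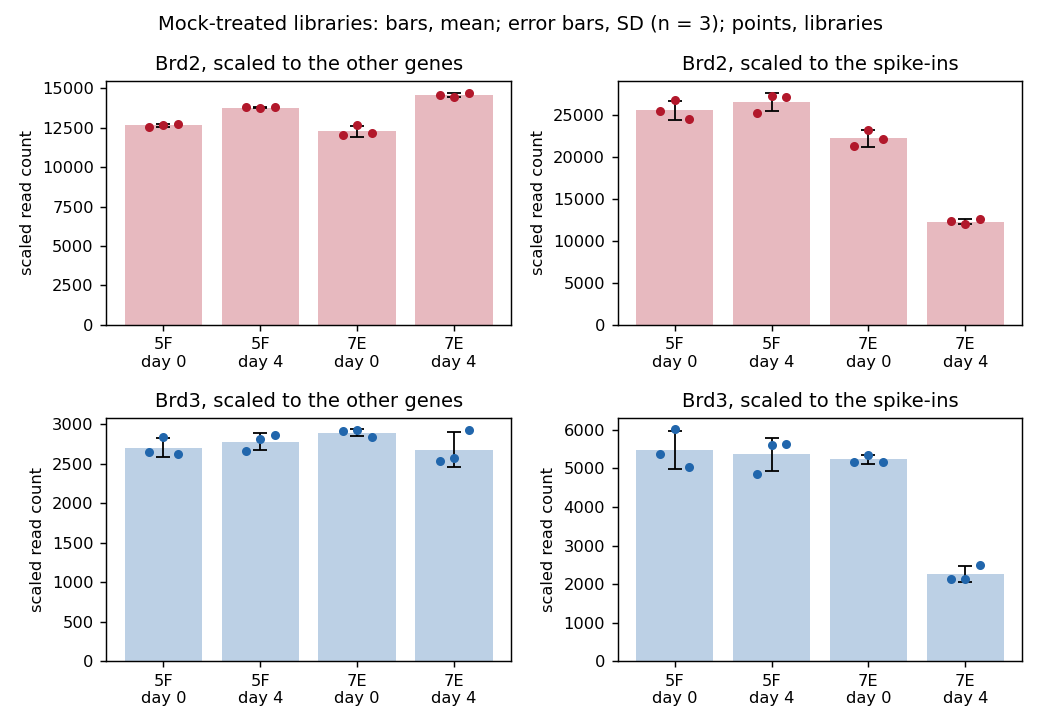
Scaled read counts of Brd2 (upper panels) and Brd3 (lower panels) in the mock libraries of each clone and day, scaled to the other genes (left) or to the library's own spike-ins (right). Bars give means, error bars the SD of 3 libraries and points the libraries, and clone 7E at day 4 is the highest group for Brd2 on the left, at 14575, and the lowest for both genes on the right.

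The clones themselves were compared at day 0, where the log2 difference of clone 7E against 5F was -0.044 ± 0.037 (SE) for Brd2 and 0.096 ± 0.053 for Brd3, with edgeR adjusted p values of 0.38 and 0.17. This comparison called 36.2% of genes. Scaled to each library's own spike-ins, the difference of Brd2 was -0.20 and passed the test, with an adjusted p of 0.0025, where the median gene was at -0.17, and that of Brd3 was -0.066, with an adjusted p of 0.47. All 4 primitive endoderm markers were lower in clone 7E, at a median log2 difference of -3.37, and all 3 neural markers higher, at 1.06, and their part in the differences between the clones was not tested. The change from day 0 to day 4 was then compared between the clones. It was 0.12 ± 0.052 larger in clone 7E for Brd2, with an adjusted p of 0.13, and 0.15 ± 0.075 smaller for Brd3, at a log2 difference of -0.15 and an adjusted p of 0.24. This interaction called 11.9% of genes. For Brd3 it was -0.22 with an adjusted p of 0.034 when clone 7E day 4 replicate 3 was left out. Scaled to each library's own spike-ins, the interaction was -0.91 for Brd2 and -1.18 for Brd3, with a median of -1.03 over all genes.

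The time courses asked how fast each mRNA was lost. In clone 5F at day 0, Brd2 was at 32.2 and 33.0% of the mean mock level in the 2 libraries at 120 min, at 21.2, 16.9 and 19.3% at 240 min, and at 13.4, 12.8 and 12.0% at 360 min. At day 4 of that clone it was at 25.5, 29.9 and 29.2%, then 18.3, 17.4 and 18.9%, then 12.6, 14.1 and 10.9%. Most of the message was thus gone by the first time point in every library of clone 5F, and the days overlapped at 240 and 360 min but not at 120 min.

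In clone 7E at day 0, Brd2 was at 32.9, 35.1 and 34.5% of mock at 120 min, at 22.6, 19.5 and 22.6% at 240 min, and at 16.0, 14.3 and 13.6% at 360 min. At day 4 it was at 25.7, 29.8 and 31.8%, then 20.9, 19.7 and 20.8%, then 16.2, 16.6 and 14.9%. The days overlapped at 240 and 360 min in clone 7E, whereas at 120 min all libraries of day 4 were lower than those of day 0. In reads scaled to the other genes, clone 7E at day 4 held the most Brd2 late in the course. Its libraries held 2864 to 3041 reads at 240 min and 2176 to 2419 at 360 min, above the highest of the other groups at 2773 and 1966, as they had been above them in mock.

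Brd3 was lost more slowly and with a wider spread. In clone 5F at day 0, it was at 53.4 and 68.5% of mock at 120 min, at 63.0, 29.7 and 54.9% at 240 min, and at 45.7, 45.7 and 36.0% at 360 min. At day 4 it was at 34.8, 55.4 and 60.4%, then 47.1, 38.3 and 47.6%, then 42.5, 48.6 and 25.5%. In each of these sets the lowest library was the 1 with the low mitochondrial share.

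The same held in clone 7E. At day 0, Brd3 was at 56.3, 68.8 and 74.6% of mock at 120 min, at 57.4, 33.6 and 55.8% at 240 min, and at 49.9, 40.6 and 37.3% at 360 min. At day 4 it was at 32.3, 57.5 and 63.8%, then 54.2, 39.2 and 48.7%, then 43.6, 43.5 and 26.8%. Without the 12 libraries, the group means of Brd3 at 360 min were 43.5 to 45.7% of mock, and those of Brd2 13.1 to 16.4%. The 4 groups overlapped with at least 1 other at each of the 3 treated times for Brd3.

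**Figure D2:**
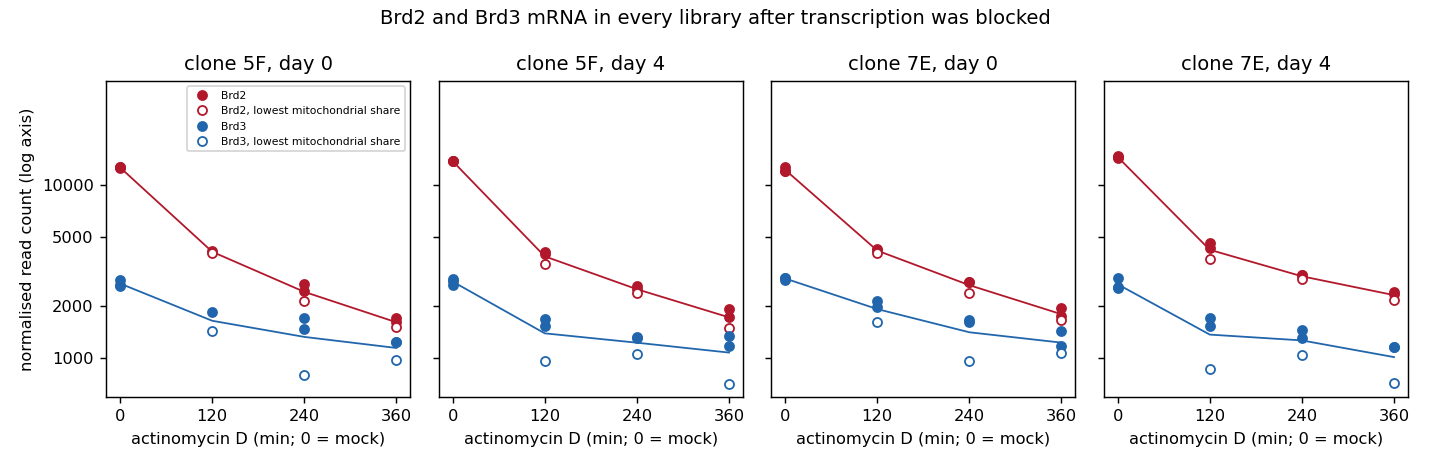
Normalised reads of Brd2 (red) and Brd3 (blue) in each library, on a log axis, against minutes of actinomycin D, with 0 min the mock. Lines join group means of 2 or 3 libraries and open points are the 12 libraries with the lowest mitochondrial share. Brd2 falls steeply to 120 min and then more slowly, to 10.9 to 16.6% of mock at 360 min, and the open points are the lowest of their group for both genes.

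A straight line through the natural log of normalised reads over all times gave Brd2 a half-life of 122 ± 9.67 min (SE, 11 libraries) in clone 5F at day 0 and 124 ± 13.0 min (12 libraries) at day 4. In clone 7E it was 134 ± 11.5 min at day 0 and 142 ± 18.3 min at day 4, with 12 libraries each. Among the 10593 genes with a mean of at least 100 reads, 9.65 to 10.5% decayed faster than Brd2 in the 4 groups. Brd3 had half-lives of 288 ± 61.3 and 274 ± 63.0 min in clone 5F at day 0 and day 4, and of 286 ± 46.6 and 276 ± 65.4 min in clone 7E. The half-life at the median slope of all genes was 287 to 291 min, and 46.1 to 49.6% of genes decayed faster than Brd3. Without the 12 libraries, Brd3 had half-lives of 301 to 322 min and Brd2 of 121 to 136 min. The SEs of these half-lives hold departure from a straight line as well as the spread between libraries.

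**Figure D3:**
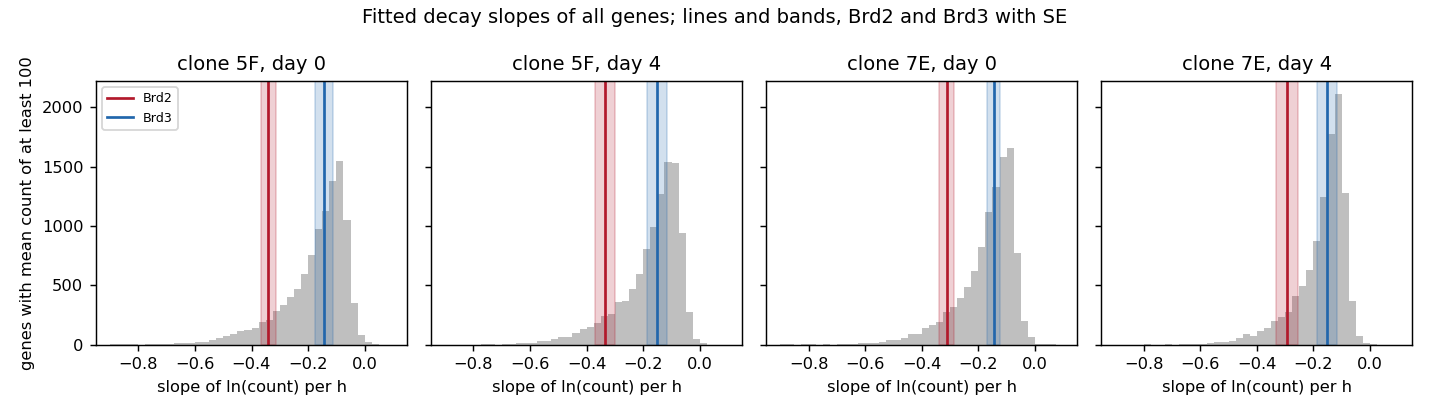
Histograms of the slope of ln(count) per hour of actinomycin D over the 10593 genes with a mean of at least 100 reads, in each clone and day, with lines for Brd2 (red) and Brd3 (blue) and bands of 1 SE. Steeper decay is to the left, where Brd2 lies in the outer 9.65 to 10.5% of genes and Brd3 lies near the median.

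The fall of Brd2 was not a single exponential. Fitted to 0 and 120 min alone, its half-life was 65.6 to 77.4 min, and fitted to 120 to 360 min it was 179 ± 14.7 (SE) and 204 ± 17.7 min in clone 5F and 196 ± 12.9 and 277 ± 27.3 min in clone 7E, at day 0 and day 4. The same bend was present in the typical gene, since the half-life at the median slope was 157 to 168 min over the first window and 425 to 459 min over the second. In the late window 21.8% of genes decayed faster than Brd2 in clone 7E at day 4, and 11.8 to 14.3% in the other groups. Without a spike-in factor, fitted half-lives of Brd2 were 203 to 261 min, so the values in minutes rest on the spike-ins. The rank of Brd2 could hardly move, with 9.72 to 10.6% of genes faster, because the factor shifts the slopes of all genes alike. The rank of Brd3 was less settled at day 4. From 0 and 120 min, 32.0% of genes in clone 5F and 30.5% in clone 7E decayed faster than Brd3 at day 4, and from 120 to 360 min 71.0% and 74.7% did. At day 0 these shares were 49.2% and 60.4% early and 52.2% and 40.5% late. Leaving out replicate 3 moved the share over the whole course at day 4 to 61.9% in clone 5F and 71.0% in clone 7E, and leaving out the 12 libraries gave 55.3 to 58.1% in the 4 groups.

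The ratio of Brd2 to Brd3 reads within a library needs no scaling. It fell from 4.46 to 4.86 in mock to 1.32 to 1.56 at 360 min in clone 5F at day 0, and from 4.82 to 5.19 to 1.44 to 2.12 at day 4. In clone 7E it fell from 4.12 to 4.34 to 1.36 to 1.55 at day 0, and from 5.02 to 5.74 to 2.02 to 3.03 at day 4. No library at 360 min reached the lowest mock library of its group. The slope of the log2 ratio per hour was -0.28 ± 0.034 (SE) and -0.26 ± 0.032 in clone 5F and -0.24 ± 0.033 and -0.21 ± 0.041 in clone 7E, at day 0 and day 4. In two-sided permutation tests of the time labels with 100000 resamples, the p values adjusted over the 4 groups were 0.00011 for each of the first 3 and 0.00086 for clone 7E at day 4. Brd2 was therefore lost faster than Brd3 in each group, by more than the spread between libraries.

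Without the 12 libraries the slopes were steeper, at -0.31, -0.29, -0.26 and -0.24 per hour, with permutation p values adjusted over the groups of 0.00036 to 0.00062. The 12 libraries held the highest ratio of their group in each of the 12 groups treated with actinomycin D. When the mock libraries were left out, the slopes were -0.21, -0.20, -0.14 and -0.11 per hour, and the p adjusted over the groups for clone 7E at day 4 was 0.10 by the permutation test.

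**Figure D4:**
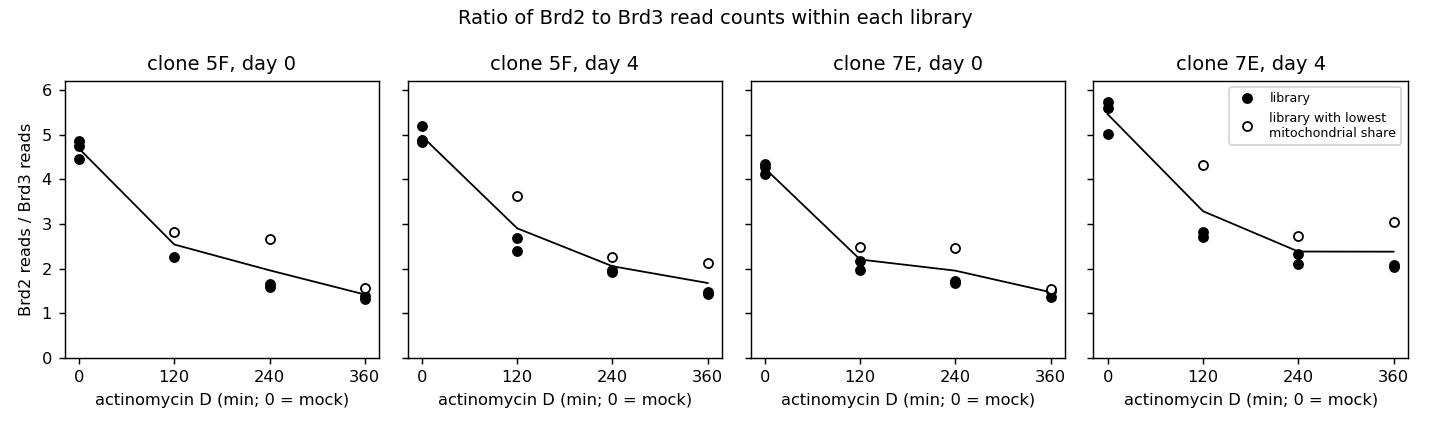
Ratio of Brd2 to Brd3 reads in each library against minutes of actinomycin D, by clone and day, with lines through group means of 2 or 3 libraries. The ratio falls from 4.12 to 5.74 in mock to 1.32 to 3.03 at 360 min, and open points, the 12 libraries with the lowest mitochondrial share, lie highest in their groups.

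Whether 4OHT changed the decay was asked in each clone by the interaction of time and day, in which a positive value means slower loss at day 4. For Brd2 the difference in log2 slope per hour was 0.0052 ± 0.054 (SE) in clone 5F and 0.022 ± 0.056 in clone 7E, with edgeR adjusted p values of 1.0 and 0.98. For Brd3 it was -0.012 ± 0.057 in clone 5F and -0.012 ± 0.053 in clone 7E, with adjusted p values of 1.0 and 0.99. The 95% intervals ran from -0.101 to 0.111 and from -0.087 to 0.132 per hour for Brd2, and from -0.124 to 0.100 and from -0.115 to 0.092 per hour for Brd3. Differences of that size cannot be seen with this straight-line fit, whose SE also holds the bend of the course. These comparisons called 0.196% of 17901 genes in clone 5F and 0.884% of 17417 genes in clone 7E, and Brd2 and Brd3 were not among them. Without the 12 libraries, the difference for Brd2 was 0.0056 ± 0.055 (SE) in clone 5F and 0.0145 ± 0.058 in clone 7E. For Brd3 it was -0.0089 ± 0.032 and -0.0091 ± 0.027, with a smaller SE than with them. From 120 to 360 min alone, without mock, the change of Brd2 was 0.042 ± 0.035 (SE) in clone 5F and 0.088 ± 0.028 in clone 7E, with unadjusted p values of 0.24 and 0.0055 and edgeR adjusted p values of 1.0 and 0.15. The early window went the other way. From 0 and 120 min alone the change of Brd2 was -0.105 ± 0.043 (SE) in clone 5F and -0.116 ± 0.046 in clone 7E. Unadjusted p values there were 0.027 and 0.023, and edgeR adjusted p values 0.57 and 0.26.

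Between the clones, the slope of Brd2 was 0.040 ± 0.058 (SE) per hour shallower in clone 7E than in clone 5F at day 0 and 0.057 ± 0.057 shallower at day 4, with edgeR adjusted p values of 1.0 and 0.90. For Brd3 the differences were -0.0021 ± 0.058 and -0.0021 ± 0.056, with adjusted p values of 1.0 at both. These comparisons called 0.0376% and 0.242% of 18623 genes. The 95% intervals for Brd2 were -0.074 to 0.154 and -0.054 to 0.168 per hour. Without the 12 libraries, the differences at day 0 and day 4 were 0.040 ± 0.061 (SE) and 0.049 ± 0.059 for Brd2. For Brd3 they were -0.0048 ± 0.031 and -0.0050 ± 0.030. Since the libraries with a low mitochondrial share carried the same replicate number in every group of a time point, the fits were repeated with a block for each replicate number within each treated time, an alternative chosen after seeing the data. This block also takes out the bend of the course that all groups share. The difference of Brd2 between the clones at day 4 was then 0.058 ± 0.014 per hour, with an edgeR adjusted p of 0.0070, in a fit that called 9.08% of genes. At day 0 it was 0.034 ± 0.015, with an adjusted p of 0.25. The changes with 4OHT were 0.0013 ± 0.015 in clone 5F and 0.026 ± 0.016 in clone 7E for Brd2, with adjusted p values of 0.99 and 0.36, and no value of Brd3 passed the test. The change with 4OHT differed between the clones by 0.017 ± 0.081 for Brd2, with an adjusted p of 1.0, and by less than 0.001 for Brd3, with an interval of -0.149 to 0.149. This interaction called 0% of genes by edgeR, with 476 genes at an unadjusted p under 0.05 and 4 genes past the threshold by DESeq2. Without the 12 libraries the interaction was 0.0089 ± 0.085 (SE) for Brd2 and -0.00026 ± 0.043 for Brd3.

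The neighbours of the BET genes in function were set beside them. The lists were 33 other bromodomain genes, 29 genes of pausing and elongation by RNA polymerase II, 5 genes for partners of the extra-terminal domain and 22 lysine acetyltransferases and deacetylases. Of the 31 bromodomain genes with a mean of at least 100 reads, 2 decayed faster than Brd2 by the mean slope of the 4 groups. These were Brpf1, a scaffold of acetyltransferase complexes, at 99.2 min, and Brd1, of the same family as Brpf1 and not a BET gene, at 124 min. Brd2 was at 130 min on that measure, and 21 of the 31 were faster than Brd3. The half-life at the median slope of the bromodomain list was 226 min and that of all genes 291 min. Of the 28 elongation genes so measured, Mepce, which caps the 7SK RNA, at 85.3 min, and Hexim2, an inhibitor of P-TEFb, at 112 min, were faster than Brd2. Among the partners of the extra-terminal domain it was Atad5, at 112 min, and of the 20 acetyltransferases and deacetylases, Sirt7, Sirt1 and Kat6b, at 112, 118 and 128 min.

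None of the 33, 29, 5 and 22 genes of these lists passed the test for a change in decay in clone 5F or clone 7E. These tests called 0.196% and 0.884% of all genes, so an absence of calls in lists this short says little on decay. The list medians were -0.019 to -0.0028 per hour, beside 0.0020 and -0.0016 over all genes. In mock levels of clone 5F, 10 of 33 bromodomain genes rose at day 4 and 0 fell, led by Trim66 at a log2 change of 1.25, Brpf3 at 0.51, Kmt2a, a histone H3 lysine 4 methyltransferase, at 0.49 and Zmynd8 at 0.40. Of 28 elongation genes, 10 rose and 0 fell, led by Aff1 at 0.55, a part of the super elongation complex, Hexim1 at 0.44, Supt6 at 0.38 and Ccnk at 0.35. In clone 7E, 9 bromodomain genes rose and 5 fell, with Smarca2, an ATPase of the BAF complex, at 1.15 and Trim66 at 0.99, and 7 elongation genes rose and 5 fell.

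These shares, 30.3% and 35.7% of the bromodomain and elongation lists in clone 5F and 42.4% and 42.9% in clone 7E, stand beside 22.6% and 39.9% of all genes called in either direction. In clone 5F every call in both lists was a rise, where 11.9% of all genes were called as higher. The list medians were 0.10 and 0.035 in clone 5F and 0.035 and -0.049 in clone 7E, beside -0.0029 and -0.0066 over all genes. Of the partners of the extra-terminal domain, Nsd3, a histone H3 lysine 36 methyltransferase, rose by 0.27 in clone 5F and by 0.21 in clone 7E. The acetyltransferases and deacetylases held 3 that rose and 3 that fell in clone 5F, and 5 and 3 in clone 7E, with Hdac9 at 1.08 and 0.68 and Hdac11 at -0.69 and -0.43. Scaled to each library's own spike-ins, 31 of 33 bromodomain and 28 of 28 elongation genes fell in clone 7E. There 15128 of all 17209 genes were called as lower too, and the median of all genes was -1.10. In clone 5F 6 and 5 genes of these lists rose and 0 fell, beside 1114 of all genes called as higher and 2740 as lower.

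The genes whose group means over the 16 groups of clone, day and time were most like those of Brd2 were Tnfaip1, Mef2a, Gcc1, Prkab1 and 4930522L14Rik, with Pearson's r of 0.998 to 0.997 on log2 normalised reads. For Brd3 they were Slc35e3, Lrch1, Diaph1, Mcmbp and Rtf1, a subunit of the PAF1 complex, with r of 0.993 to 0.991. Brd2 and Brd3 had an r of 0.956 with each other. All 16 group means share the course of actinomycin D and its spike-in factors, so these values are a description only.

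Binding to the decay factors was measured by CRAC, in which a tagged protein is crosslinked to RNA with ultraviolet light and the bound fragments are sequenced. The authors pooled replicates and gave each mRNA's reads for MTR4, SKI2 and XRN1 as shares that sum to 1, and AVEN relative to the same total. These values carry no replicate error, so no test was made. For Brd2 the shares were 0.273 for MTR4, 0.332 for SKI2 and 0.396 for XRN1, and 37.9%, 64.4% and 63.0% of 7240 mRNAs lay below it. For Brd3 they were 0.358, 0.350 and 0.292, with 58.3%, 67.9% and 38.6% below it. XRN1 thus had the largest share for Brd2 and the smallest for Brd3, and both had SKI2 shares above the median of 0.267.

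AVEN set them further apart. Its relative binding was 0.714 for Brd2, above 96.8% of mRNAs, and 0.360 for Brd3, above 66.0%, where the median was 0.295. Of 29 other bromodomain mRNAs in the table, Kat2b, an acetyltransferase, was above Brd2 at 0.80, and their median was 0.41. None of the 25 elongation genes reached Brd2, and the highest was Ell2 at 0.534. The authors' RPKM values in the 3 lines tagged for XRN1, SKI2 and MTR4 were 73.8, 66.7 and 76.3 for Brd2 and 41.1, 37.2 and 50.2 for Brd3, per length of their transcript, so Brd2 was the more abundant in each line.

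**Figure D5:**
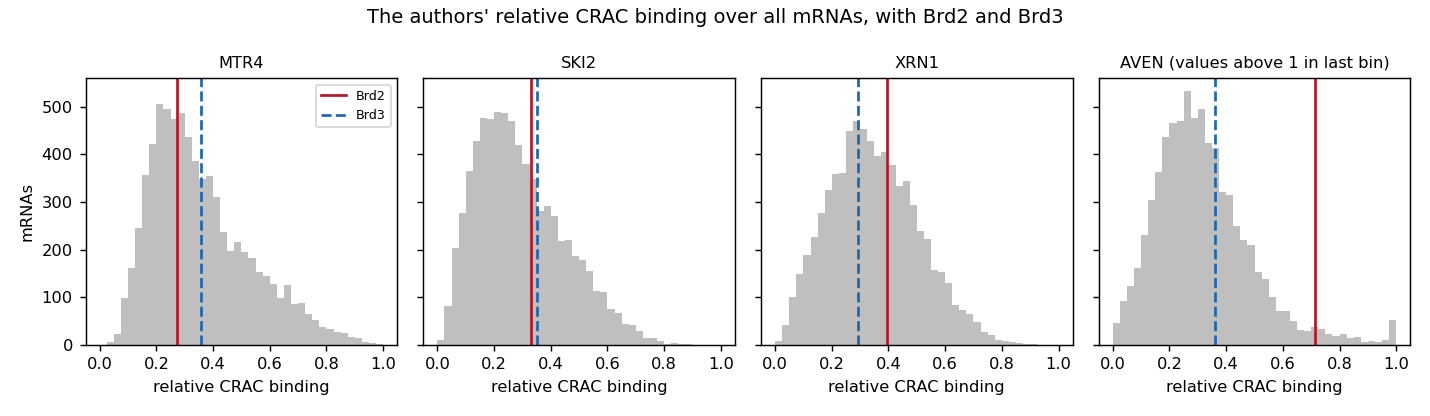
Histograms of relative CRAC binding over 7240 mRNAs for MTR4, SKI2, XRN1 and AVEN, with a solid line for Brd2 and a dashed line for Brd3. The lines lie inside the bulk of mRNAs for MTR4, SKI2 and XRN1, whereas for AVEN Brd2 lies in the upper tail at 0.714 and Brd3 at 0.360, and AVEN values above 1 are drawn in the last bin.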

How the data were processed

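RNA-seq libraries had been made after rRNA depletion with an unstranded kit. The authors mapped reads with STAR to GRCm38 plus ERCC spike-ins and deposited raw counts of unique reads per gene. The authors' deposited CRAC values are ratios of pooled, scaled counts, and their RPKM values are per length of 1 transcript. Columns of the authors' own comparisons (log2 fold changes, adjusted p-values) and half-lives were not used. Of 47 count columns, 0 were left unused. The group of clone 5F at day 0 and 120 min holds 2 libraries because the samples include no replicate 2 of it.

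Members and gene lists were chosen with earlier results of these data known. Genes were named if they were members, checks of the labels, the 5 genes most like a member, or up to 4 called genes of a list with the largest change; other genes, such as those faster than a member, were named after their values were seen. Libraries of a time point were scaled to each other by median-ratio size factors. The loss of mRNA over time was then set by a further factor from 34 ERCC sequences with a mean above 50 reads, which was 1 for mock and 0.649, 0.531 and 0.438 for 120, 240 and 360 min. Tests used edgeR 4.0.16 in R 4.3.3 (quasi-likelihood, filterByExpr, Benjamini-Hochberg threshold 0.05), with DESeq2 1.42.0, limma 3.58.1 and other scalings, filters and sample sets as alternatives. Half-lives were fitted to ln(normalised reads + 1). The code was tested on simulated data. Symbols, coordinates and transcript models came from Gencode M21, a later release than the authors' on the same build. Over pairs of replicates, the smallest chi-square per gene was 3.2, so none were duplicates. Replicate numbers were not taken as pairs in the main fits. Results without 12 libraries, and with a block for replicate numbers within each treated time, were added after seeing the data.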

Additional observations from a re-analysis of the deposited data

Results flagged for a closer look

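Scaled to the other genes, no difference between the clones in the change of Brd2 or Brd3 passed the test. Among Skiv2l and, of each list, up to 4 called genes with the largest difference, the change in mock level from day 0 to day 4 differed between the clones (log2, clone 7E minus clone 5F, edgeR interaction) in 11 cases. The interaction called 24.2% of the bromodomain genes, 21.4% of the elongation genes and 0% of the partners of the extra-terminal domain. It called 9.09% of the acetyltransferases and deacetylases, beside 11.9% of all genes. The difference was -1.31 for Skiv2l, the targeted gene. Of the bromodomain genes it was 0.85 for Smarca2, -0.37 for Baz2a, -0.36 for Kat2b and -0.33 for Cecr2. Of the elongation genes it was -0.44 for Hexim2, -0.27 for Ccnt2, -0.22 for Rtf1 and -0.20 for Cdk12. Of the acetyltransferases and deacetylases it was -0.27 for Kat6b and 0.21 for Hdac6. Scaled to each library's own spike-ins, where the median gene was at -1.03, the values of Smarca2 and Hdac6 turned to -0.17 and -0.82 and the others named from the lists stayed negative.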

How the results depend on the processing

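The replicate block within each treated time brought 1 call on decay, of Brd2 between the clones at day 4, and no other alternative brought a call on the decay of Brd2 or Brd3. Decay changes are in log2 per hour and in the order clone 5F day 4 against day 0, clone 7E day 4 against day 0, clone 7E against 5F at day 0, the same at day 4, and the interaction. Their signs turned as follows, and the cause was not tested. For Brd2, 0 and 120 min alone gave -0.105 in clone 5F, -0.116 in clone 7E and -0.0109 for the interaction, leaving out 360 min gave -0.0178, -0.0189 and -0.0011, and own spike-ins gave -0.0066 in clone 5F. For Brd3, leaving out mock gave 0.036 in clone 5F, 0.053 in clone 7E and 0.017 for the interaction. Own spike-ins gave 0.012 in clone 7E, 0.027 between the clones at day 4 and 0.033 for the interaction. With 0 and 120 min alone the clones differed by 0.064 at day 0 and 0.013 at day 4, and without 360 min by 0.024 at day 4, with 0.026 for the interaction. TMM gave 0.00041 at day 0, limma gave 0.0016 at day 4 and 0.0035 for the interaction, and DESeq2 gave 1.4e-05 for the interaction.

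The number of genes called for a change in decay was 35 in clone 5F, 154 in clone 7E, 7 between the clones at day 0, 45 between them at day 4 and 0 for the interaction. In clone 5F it was 10 by limma, 19 with own spike-ins, 14 without mock and 65 from 0 and 120 min. In clone 7E it was 270 by DESeq2, 236 without mock and 84 without 360 min. Between the clones at day 0 it was 29 by DESeq2, 4 with own spike-ins, 61 without mock, 22 from 0 and 120 min, 2 without 360 min and 0 without the 12 libraries, an alternative chosen after seeing the data. Between them at day 4 it was 133 by DESeq2, 13 with no filter, 72 at a mean of at least 100 reads, 117 without mock, 16 from 0 and 120 min and 0 without 360 min. For the interaction it was 4 by DESeq2, 1 with own spike-ins, 5 without mock, 15 from 0 and 120 min and 2 without the 12 libraries.

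Leaving out each replicate in turn gave 2 to 4 genes in clone 5F, 26 to 50 in clone 7E, 0 to 0 between the clones at day 0 and 0 to 2 at day 4. Decay changes of Brd2 in clone 5F were then -0.0148 to 0.0159. Those of Brd3, in the order given first, were -0.0448 to 0.0176, -0.0406 to 0.0233, -0.0072 to 0.0020, -0.0141 to 0.0062 and -0.0069 to 0.0057. In mock levels, Brd2 in clone 5F was at 0.117 to 0.127 and Brd3 in clone 7E at -0.179 to -0.0717, with an interaction of -0.216 to -0.109. Half-lives of Brd3 at day 4 were 238 to 354 min in clone 5F and 230 to 364 min in clone 7E.

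Own spike-ins gave mock changes of 0.054 (clone 5F), -0.852 (clone 7E), -0.203 (clones at day 0) and -0.906 (interaction) for Brd2 and of -0.031, -1.21, -0.066 and -1.18 for Brd3, and called 15398 genes in clone 7E and 14372 in the interaction. The share of higher calls then moved from 52.5 to 28.9% in clone 5F, 51.4 to 1.75% in clone 7E, 49.9 to 20.1% between the clones and 55.7 to 0.376% in the interaction, and for decay from 68.6 to 84.2%, 45.5 to 72.4% and, at day 4, 60 to 97.8%.

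Half-lives of Brd2 in clone 5F day 0, clone 5F day 4, clone 7E day 0 and clone 7E day 4 were 203, 208, 234 and 261 min without a spike-in factor, 179, 204, 196 and 277 min without mock and 74.2, 65.6, 77.4 and 67.2 min from 0 and 120 min. Those of Brd3 were 4891, 2296, 3593 and 2446 min, 478, 630, 372 and 589 min, and 166, 116, 201 and 117 min. The slope of the ratio in clone 7E at day 4 was -0.115 without mock.

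Replicate numbers are shared by all groups. Deviations of same-numbered libraries of 1 time point had a mean correlation of 0.354 (-0.294 to 0.843, 51 pairs) under actinomycin D, against -0.171 for different numbers, and of -0.0179 (-0.466 to 0.483) in mock. Since not every pair was positive, the numbers were not taken as a pairing in the main fits. With 1 replicate block over all times no call on Brd2 or Brd3 changed, 26, 115, 7, 34 and 0 genes were called for decay in the order given first, the Brd3 interaction in decay was 0.00017, and the ratio slopes were -0.286, -0.263, -0.240 and -0.205. With the replicate block within each treated time, 177, 1172, 528, 1691 and 11 genes were called, Brd2 between the clones at day 4 was at 0.0583 (adjusted p 0.0070 by edgeR, and 0.41 to 1.0 under the alternatives other than this block) and the Brd3 interaction was 0.0033.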
